A study of Mus musculus with 5 samples.

Results

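The genes described here make and use microRNAs. They are the 10 genes Drosha, Dgcr8, Xpo5, Dicer1, Tarbp2, Ago1, Ago2, Ago3, Tnrc6a and Tnrc6b. They were chosen by name for their role and not by any measured value, though with earlier results of these data known. Every probe of a mouse oligonucleotide array whose gene symbol, current or older, is one of them was taken. This gave 11 probes of 9 genes among 26423 probes on the array: 3 for Ago2 and 1 for each other gene. No probe bears the name of Drosha or one of its synonyms in the annotation used, and Drosha is not analysed here.

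The array measured RNA of the striatum, the part of the brain most affected in Huntington's disease (HD), from 5 male FVB mice aged 12 months. In the 3 mice called HD_miR196a, 2 transgenes were present: a GFP fusion of the first exon of human HTT, with 84 CAG repeats, and a precursor of the microRNA miR-196a. The 2 mice called HD carried the HTT transgene without miR-196a. Both transgenes had a human ubiquitin promoter, which is active in most cell types and not in neurons alone. Per the labels, 2 technical repeats were combined for each mouse, so n counts mice. No mice free of the HTT transgene were analysed here. The comparison asks whether forced expression of 1 microRNA goes with a different level of the transcripts that process and execute microRNAs.

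A microRNA gene is first copied into a long primary transcript that folds into a hairpin. The Microprocessor, made of the nuclease Drosha and its RNA-binding partner Dgcr8, cuts out the hairpin in the nucleus, exportin 5 (Xpo5) carries it to the cytoplasm, and Dicer1 with its partner Tarbp2 trims it to a short duplex. An Argonaute protein keeps 1 strand of that duplex, and TNRC6 proteins bound to Argonaute recruit the enzymes that shorten the poly(A) tail and remove the cap of the target. In neurons this machinery is also found in dendrites, where it takes part in the control of local protein synthesis.

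The transgene holds a precursor of miR-196a, and the 2 mature sequences of the mouse miR-196 family are shown here. Both are from RefSeq (build GRCm38.p6), with the seed, bases 2 to 8, in capitals. The seed is the stretch that pairs with targets.
mmu-miR-196a-5p: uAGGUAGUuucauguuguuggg
mmu-miR-196b-5p: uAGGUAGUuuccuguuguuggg
In the mouse genome miR-196a-5p is encoded at 2 places, chr11:96265187-96265208 and chr15:102973365-102973386, both on the plus strand, and miR-196b-5p at chr6:52230129-52230150 on the minus strand. Of 1738 mature microRNA entries in that table, these 3 carry the seed. The labels do not say from which species the transgene's precursor was taken, and no probe for miR-196a was used.

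None of the 9 measured genes differed between HD_miR196a and HD mice past the threshold. All levels below are log2 intensities after quantile normalization, and each difference is HD_miR196a minus HD with its standard error from limma, a linear model fitted to all probes. Of the 11 probes, 5 had a difference above 0 and 6 below 0, with a median of -0.05, against a median of 0.0 over all probes. The largest difference was 0.27 for Ago3, or 1.21-fold. At an adjusted p under 0.05 limma called 0 of 11 probes, and 0 of 26423 over the array (0.0%). At an unadjusted p under 0.05 it found 0 of 11 probes as well, where 4.16% of all probes lay. The smallest adjusted p among the 11 was 0.979. For 10 of them the range of levels within 1 of the groups was wider than the difference between the groups. The 95% interval of each of the 11 differences lay within 1 on the log2 scale in both directions, which is 2-fold. In bulk tissue, a change in the number of cells that express a gene and a change in RNA per cell cannot be told apart. Nothing in the labels says how the mice were related, so the p-values rest on the spread between 5 mice only.

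The tissue and the level of signal bear on each value. Of 11 measured genes of medium spiny neurons, the main striatal cell type, 9 lay above the 95th percentile of 544 olfactory receptor probes, a gauge of background at 8.31. The probe of Drd2, a defining gene of these cells, lay at 0.87. Deposited medians per mouse ran between 160.0 and 166.3 in HD_miR196a mice and between 184.3 and 185.6 in HD mice, a difference that quantile normalization removes. Without any scaling the median of all probes was -0.20, 9 of the 11 probes were below 0 rather than 6, and 0 were called. Set against that shift, 6 of the 11 were below the median of all probes without scaling, with median centring and with quantile normalization.

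**Figure D1:**
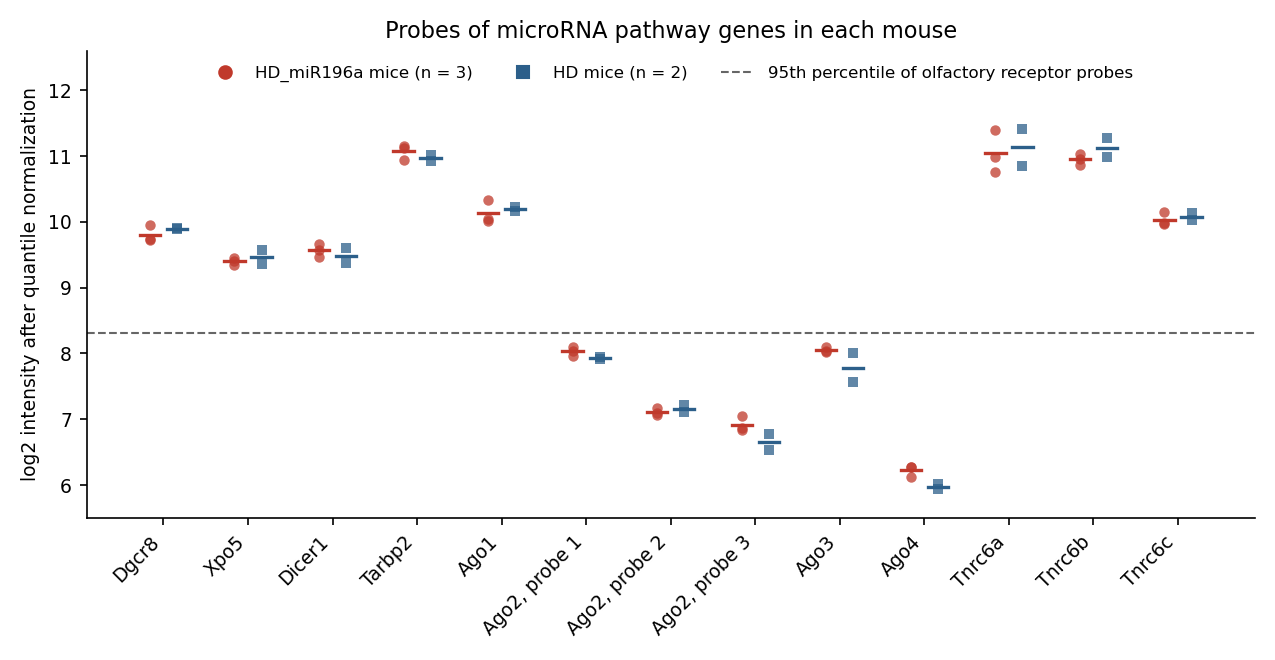
Levels of the 11 probes, and of the remaining family members Ago4 and Tnrc6c, as log2 intensity in each mouse (points), with group means (bars) for 3 HD_miR196a mice and 2 HD mice. The points of both groups lie within 1 unit of each other for every probe, and the probes of Ago2, Ago3 and Ago4 lie below the dashed line at 8.31. Levels are compared within a probe only, since probes bind with different strength.

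The nuclear steps were represented by Dgcr8 and Xpo5. Dgcr8 (chr16:18253948-18289251 in GRCm38.p6), which binds the stem of the hairpin, measured 9.74, 9.95 and 9.73 in HD_miR196a mice, against 9.90 and 9.89 in HD mice. Both HD values fell inside the range of the HD_miR196a mice. The difference was -0.09 ± 0.11 (SE), with a 95% interval from -0.38 to 0.21 and an adjusted p of 0.982. As deposited, before scaling, the groups did not overlap at this probe or at those of Xpo5, Tnrc6b and the second Ago2 probe, with all 3 HD_miR196a mice lower than both HD mice, as at 38.1% of all probes. The deposited Dgcr8 values were intensities of 756.6, 935.0 and 830.3 in HD_miR196a mice and 1048 and 1045 in HD mice. The difference without scaling was -0.32 ± 0.13 (SE), or -0.12 relative to the median of all probes, with an adjusted p of 0.362.

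The Dgcr8 gene holds hairpins of its own. The Microprocessor is known to cut a hairpin within the Dgcr8 messenger, which lowers that messenger. The miR-1306 hairpin lies within the gene at chr16:18284239-18284317, on the same minus strand, and is shown with its mature arms in capitals (RefSeq, GRCm38.p6).
Mir1306 hairpin: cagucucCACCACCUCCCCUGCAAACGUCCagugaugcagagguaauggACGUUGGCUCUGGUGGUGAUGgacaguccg
In all, 4 annotated hairpins lie within the spans of 3 of the 10 genes: miR-1306 and Gm24572 in Dgcr8, miR-693 in Xpo5 and miR-5113 in Tnrc6b. The sources used here do not say where on these transcripts the array probes bind, so no part of a level could be assigned to cut or uncut messenger.

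Xpo5 (chr17:46202811-46243598), the export receptor for hairpins, measured 9.35, 9.41 and 9.45 in HD_miR196a mice, against 9.57 and 9.36 in HD mice. The second HD mouse lay inside the HD_miR196a range and the first above it. The difference was -0.06 ± 0.11 (SE; 95% interval from -0.35 to 0.22, adjusted p = 0.986 in limma). Without HD mouse 1 it was 0.04.

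At the cytoplasmic cut, Dicer1 (chr12:104687740-104751968), the nuclease that releases the mature duplex, measured 9.67, 9.47 and 9.57 in HD_miR196a mice and 9.60 and 9.37 in HD mice. The ranges overlapped, and the difference was 0.08 ± 0.12 (SE; 95% interval from -0.24 to 0.40, adjusted p = 0.982 in limma). It was -0.03 without HD mouse 2. Without scaling it was -0.14, or 0.06 relative to the median of all probes. Tarbp2 (chr15:102516077-102523676), the double-stranded RNA-binding partner of Dicer1, measured 10.94, 11.12 and 11.15 in HD_miR196a mice and 11.01 and 10.92 in HD mice. HD_miR196a mice 2 and 3 lay above both HD mice, and mouse 1 between them. The difference was 0.10 ± 0.11 (SE; 95% interval from -0.19 to 0.39, adjusted p = 0.979 in limma). Without scaling it was -0.14, or 0.06 relative to the median of all probes.

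After quantile normalization, Argonaute genes gave the 3 probes in which every HD_miR196a mouse lay above both HD mice. On the deposited values the groups overlapped at each of these 3. Argonautes hold the mature microRNA; in mammals Ago2 can also cut a fully matched target. Ago3 (chr4:126326994-126431670) measured 8.04, 8.02 and 8.10 in HD_miR196a mice, against 7.56 and 8.01 in HD mice. The HD_miR196a mice were close together, and the gap rested on HD mouse 1. The difference was 0.27 ± 0.16 (SE; 95% interval from -0.14 to 0.69, adjusted p = 0.979 in limma). It was 0.09 without scaling, or 0.29 relative to the median of all probes. Leaving out HD mouse 1 gave 0.05, and leaving out HD mouse 2 gave 0.49. The mean level of 8 astrocyte genes was 13.03, 12.80 and 12.77 in HD_miR196a mice. It was 11.32 in HD mouse 1 and 12.84 in HD mouse 2. Of these genes 4 had a difference between the groups above 0 and 4 below 0. How many of the 8 were low in HD mouse 1 was not counted. Any part of that low mean in the Ago3 difference was not tested.

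The 3 probes of Ago2 (chr15:73101625-73184947) disagreed in sign. The brightest measured 8.04, 7.96 and 8.09 in HD_miR196a mice and 7.95 and 7.91 in HD mice, a difference of 0.10 ± 0.09 (SE). Without scaling its difference was -0.08, or 0.12 relative to the median of all probes. On the second the levels were 7.09, 7.17 and 7.06 in HD_miR196a mice and 7.11 and 7.21 in HD mice, which overlapped, with a difference of -0.05 ± 0.10 (SE). The dimmest measured 6.84, 6.86 and 7.05 in HD_miR196a mice and 6.53 and 6.78 in HD mice, a difference of 0.26 ± 0.13 (SE; 95% interval from -0.08 to 0.61). Without scaling its difference was 0.11, or 0.31 relative to the median of all probes. Leaving out HD mouse 1 gave 0.14 for that probe, and leaving out HD mouse 2 gave 0.39. The adjusted p-values of the 3 probes in limma were 0.979, 0.986 and 0.979. Averaged over the 3 probes, Ago2 differed by 0.10 ± 0.09 (SE).

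Ago1 (chr4:126435012-126468707) measured 10.02, 10.04 and 10.33 in HD_miR196a mice, against 10.22 and 10.16 in HD mice. Both HD mice lay inside the HD_miR196a range, and the difference was -0.05 ± 0.13 (SE; 95% interval from -0.40 to 0.30, adjusted p = 0.993 in limma). Ago4, the remaining family member and not among the 10 genes, measured 6.28, 6.12 and 6.28 in HD_miR196a mice and 6.01 and 5.94 in HD mice. Its difference was 0.25 ± 0.10 (SE; 95% interval from -0.02 to 0.52, adjusted p = 0.979 in limma). Without scaling it was 0.10, or 0.30 relative to the median of all probes.

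The separation of the groups at these probes depended on scaling, and their signal was low. After quantile normalization, of the 11 probes, the 3 with every HD_miR196a mouse above both HD mice compare with 9.96% of all probes, and 0 of 11 had every HD_miR196a mouse below, against 10.3% of all probes. On the deposited values 0 of 11 lay above, against 1.85% of all probes, and 4 of 11 lay below, against 38.1%. The 3 probes, and that of Ago4, all had means below 8.31. Among the olfactory receptor probes themselves, every HD_miR196a mouse lay above both HD mice for 86 of 544, or 15.8%, and below them for 57, with a median difference of 0.04. The part of low signal in the Argonaute differences was not tested. An exact two-sided permutation test over the 10 splits of 3 against 2 mice cannot give a p below 0.1. It gave 0.1 for Ago3 and for the dimmest Ago2 probe, and 0.2 for the brightest Ago2 probe and for Ago4.

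**Figure D2:**
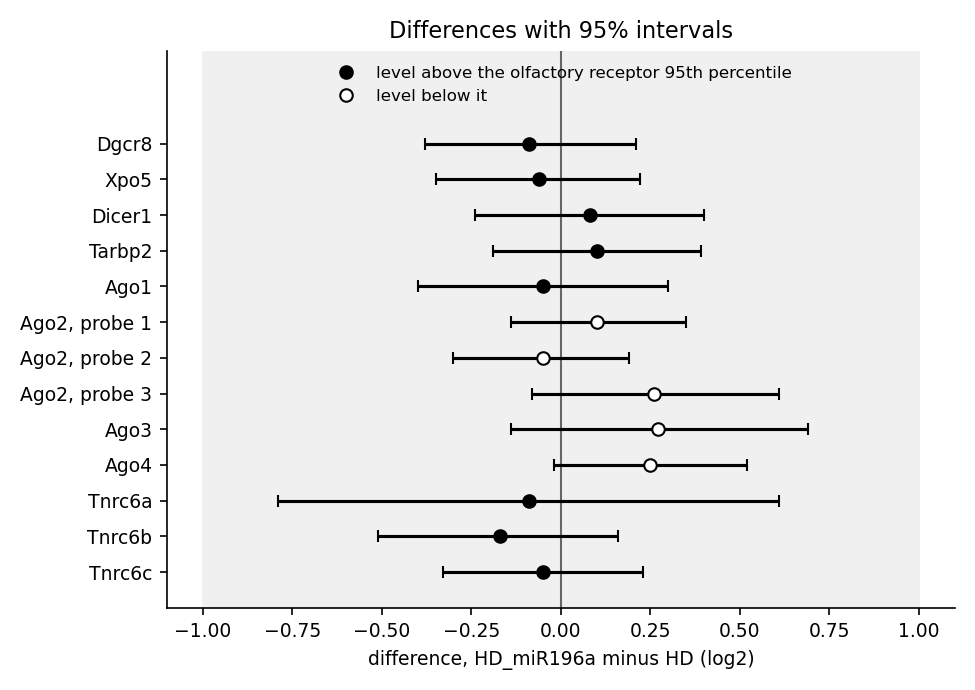
Differences between HD_miR196a and HD mice (log2, points) with limma's 95% intervals for the 11 probes and for Ago4 and Tnrc6c, where Ago2 probes run from the brightest to the dimmest. Every interval includes 0 and stays within the shaded band of 1 unit on each side, and the probes with differences of 0.25 to 0.27 (Ago4, Ago2 probe 3 and Ago3) are open points, whose levels lie below 8.31.

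Ago3, Ago1 and Ago4 are neighbours on chromosome 4, and their promoters are shown because these 3 genes share a locus. Whether their differences differ from each other was not tested. Each sequence is the 250 bases before a transcript start, as a table of RefSeq promoters (GRCm38.p6) gives it, on the minus strand of the genome and with every CG in capitals. These starts are not the outer ends of the gene spans above: the Ago3 window lies inside its span, and those of Ago1 and Ago4 overlap the ends of theirs. Of the 2 Ago1 starts in the table, the one at the higher coordinate was used.
Ago3 promoter, chr4:126429543-126429792: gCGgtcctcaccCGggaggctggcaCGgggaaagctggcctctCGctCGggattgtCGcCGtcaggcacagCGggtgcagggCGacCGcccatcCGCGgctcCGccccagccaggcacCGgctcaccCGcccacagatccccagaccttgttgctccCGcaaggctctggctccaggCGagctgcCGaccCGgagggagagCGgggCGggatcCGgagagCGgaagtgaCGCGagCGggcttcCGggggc
Ago1 promoter, chr4:126468632-126468881: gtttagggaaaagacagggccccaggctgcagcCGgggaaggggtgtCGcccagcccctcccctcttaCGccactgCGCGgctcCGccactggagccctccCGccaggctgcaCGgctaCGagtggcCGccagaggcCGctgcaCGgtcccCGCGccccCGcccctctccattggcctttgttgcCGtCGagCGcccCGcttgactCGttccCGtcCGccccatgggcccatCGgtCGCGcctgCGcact
Ago4 promoter, chr4:126533459-126533708: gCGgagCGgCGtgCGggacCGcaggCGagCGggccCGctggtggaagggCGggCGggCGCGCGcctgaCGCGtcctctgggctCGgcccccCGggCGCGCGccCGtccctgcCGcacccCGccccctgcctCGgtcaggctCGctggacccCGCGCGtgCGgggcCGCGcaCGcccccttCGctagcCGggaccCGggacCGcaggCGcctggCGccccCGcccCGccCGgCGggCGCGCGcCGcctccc
They held 27, 26 and 46 CG pairs, against a median of 6 over 32851 promoter windows of the same length. The Ago4 window, with a GC content of 85.6%, had at least as many CG pairs as 99.8% of all windows. No window of the 10 genes held TATAAA on either strand, a motif found in 12.4% of all windows. Over the 9 of the 10 genes with an entry, 11 windows had 8 to 39 CG pairs with a median of 27. The fewest were at the second annotated start of Tnrc6b.

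TNRC6 proteins link Argonaute to deadenylation. Tnrc6b (chr15:80711313-80941086) measured 11.03, 10.95 and 10.87 in HD_miR196a mice, against 10.98 and 11.27 in HD mice. HD mouse 1 lay inside the HD_miR196a range and HD mouse 2 above it. The difference was -0.17 ± 0.13 (SE; 95% interval from -0.51 to 0.16, adjusted p = 0.979 in limma), the largest below 0 among the 11 probes. It was -0.32 without HD mouse 1 and -0.03 without HD mouse 2. Without scaling it was -0.43 ± 0.13 (SE, adjusted p = 0.362), or -0.23 relative to the median of all probes, and it was then the only 1 of the 11 probes with an unadjusted p under 0.05. Over the array 3641 of 26423 probes had such a p in that setting.

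Tnrc6a (chr7:123031101-123195296) varied most from mouse to mouse. It measured 11.39, 10.75 and 10.99 in HD_miR196a mice and 11.41 and 10.85 in HD mice. Mouse 1 was the highest of its group in both groups, and the ranges within the groups were 0.64 and 0.56. The difference was -0.09 ± 0.27 (SE; 95% interval from -0.79 to 0.61, adjusted p = 0.995 in limma), with values of 0.19 without HD mouse 1 and -0.37 without HD mouse 2. Tnrc6c, the remaining paralog, measured 9.98, 10.15 and 9.96 in HD_miR196a mice and 10.03 and 10.13 in HD mice, a difference of -0.05 ± 0.11 (SE, adjusted p = 0.992 in limma). All 3 TNRC6 differences were below 0 under quantile normalization, median centring and no scaling, and none passed the test.

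Genes of the cortex, the region above the striatum, differed between mice in a way that crossed the groups. The mean level of 11 genes of cortical projection neurons was 8.82, 10.55 and 10.33 in HD_miR196a mice and 9.15 and 10.76 in HD mice, lowest in mouse 1 of each group. The same mice had the highest Tnrc6a. Prkra, a second Dicer partner, measured 10.47, 9.87 and 10.45 in HD_miR196a mice and 10.78 and 10.26 in HD mice. Fxr1, a paralog of the fragile X protein that binds RNA, measured 10.52, 9.84 and 10.06 in HD_miR196a mice and 10.74 and 10.21 in HD mice on its brighter probe. Both genes were also highest in mouse 1 of each group on these probes, Prkra by 10.47 against 10.45 among HD_miR196a mice. They are not the only ones: Dicer1, and Ran and Fkbp4 described below, were highest in mouse 1 of each group as well. For Tarbp2, Ago1 and Xpo5, in contrast, mouse 1 was the lowest of the HD_miR196a mice. The dimmer Fxr1 probe measured 6.66, 6.66 and 6.72 in HD_miR196a mice and 6.70 and 6.63 in HD mice. There HD_miR196a mouse 3 was the highest of its group. The share of all probes that are highest in mouse 1 of each group was not counted, so no link between these genes is read from it. Oligodendrocyte genes averaged 12.19, 11.89 and 11.60 in HD_miR196a mice and 11.81 and 11.40 in HD mice, likewise highest in mouse 1 of each group. Between the groups, 9 of 10 oligodendrocyte genes had a difference above 0 and 1 below. For medium spiny neuron genes 8 were above and 3 below, and for cortical projection neuron genes 6 and 5. Of all probes 50.5% were below 0, and 0 of these marker genes were called. Without mouse 1 of each group the difference was 0.02 for Tnrc6a and -0.36 for Tnrc6b, and 3 of the 11 probes rather than 6 were below 0. The part of the cells that these markers stand for in the values above was not tested.

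**Figure D3:**
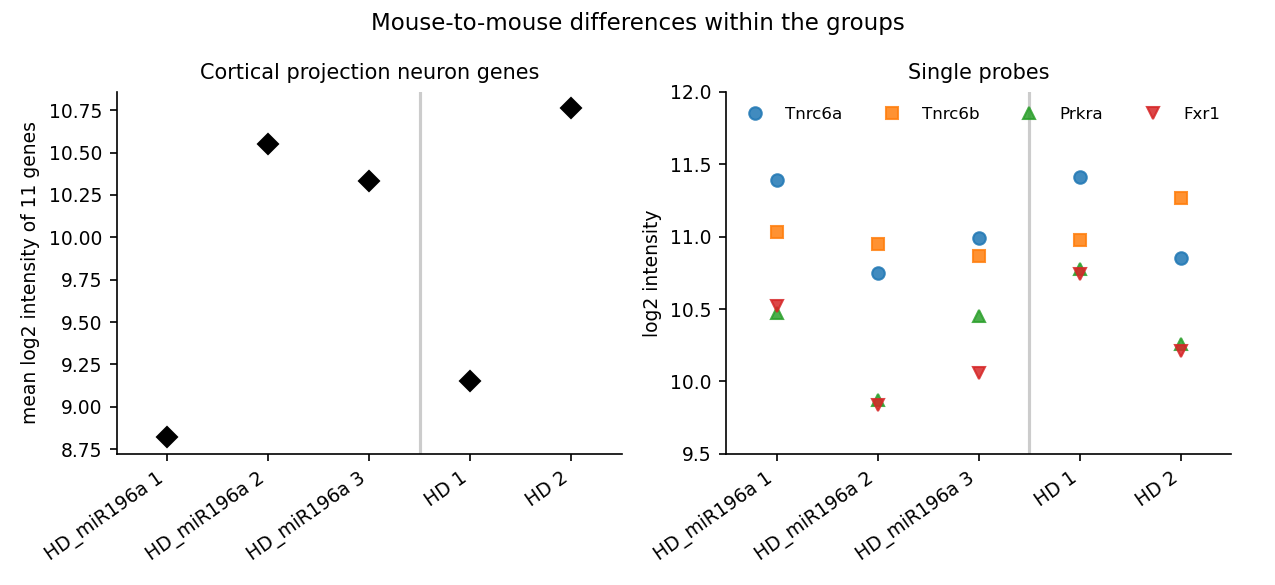
Left, the mean log2 intensity of 11 genes of cortical projection neurons in each of the 3 HD_miR196a and 2 HD mice. Right, log2 intensities of Tnrc6a, Tnrc6b, Prkra and Fxr1 in the same mice. Mouse 1 of each group is lowest at left, at 8.82 and 9.15, and highest for Tnrc6a at right, at 11.39 and 11.41, while Tnrc6b is highest in HD mouse 2, at 11.27.

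The wider pathway was read from 9 lists that cover the steps around these genes and include them, with 64 measured genes and 78 probes. Limma called 0 of the 78 probes, and 0 had an unadjusted p under 0.05, where 4.16% of all probes did. Of the 78, 27 had a difference above 0 and 51 below 0, or 65.4% below, against 50.5% of all probes and 52.2% of the 10464 probes above the olfactory receptor percentile. Their median was -0.05. Without scaling, 71 of 78 were below 0 with a median of -0.28, against -0.20 over all probes. In that setting 16 of the 78 had an unadjusted p under 0.05, as did 3641 of the 26423 probes on the array. With median centring 56 were below 0, and 1 of the 78 had such a p, against 1080 of the 26423.

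In the list of poly(A) binding and deadenylation, which holds deadenylase subunits, their adaptors and a poly(A)-binding protein, 3 of 11 probes were above 0 and 8 below. Pan2, the catalytic subunit of a deadenylase, measured 8.79, 9.17 and 8.88 in HD_miR196a mice and 8.67 and 8.57 in HD mice. Its groups did not overlap, with HD_miR196a higher, as at 9.96% of all probes. The difference of 0.33 ± 0.15 (SE) had an adjusted p of 0.979 in limma. Tob2, an adaptor between poly(A)-binding protein and the CCR4-NOT deadenylase, measured 8.51, 8.52 and 8.55 in HD_miR196a mice and 8.72 and 8.78 in HD mice. The values within each group were close, and the difference was -0.23 ± 0.09 (SE, unadjusted p = 0.0505, adjusted p = 0.979 in limma). Pan2 and Tob2 are named because their p-values were the smallest in this list, so their separation was picked from these data. Genes named below for the other lists were picked in the same way. Of the 18 genes listed for this step, 9 had a probe.

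Decapping and decay had 19 probes, 7 above 0 and 12 below. In 5 of them every HD_miR196a mouse lay below both HD mice, or 26.3%, against 10.3% of all probes. In 1 every HD_miR196a mouse lay above. This share below was the highest of any list. Over the 78 probes of the pathway lists 14.1% lay below in this way and 10.3% above, where 9.96% of all probes lay above. Lsm1, a subunit of the ring that promotes decapping, differed by -0.27 ± 0.14 (SE) on 1 probe and by 0.0 ± 0.15 on its brighter one. The decapping activator Dcp1a measured 8.57, 8.71 and 8.65 in HD_miR196a mice and 8.78 and 8.81 in HD mice, a difference of -0.15 ± 0.09 (SE, adjusted p = 0.979 in limma). Regulators bound to the silencing complex were below 0 for 11 of 15 probes, with the RNA-binding protein gene Elavl1 at 0.12 ± 0.10 (SE) on its brighter probe and Fxr1 at -0.33 ± 0.27.

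The remaining lists were small. Around the Microprocessor 2 of 6 probes were above 0, with the helicase gene Ddx17 at 0.13 ± 0.15 (SE) and Zc3h7b at 0.18 ± 0.11. The GTPase gene Ran, which drives export through Xpo5, differed by -0.11 ± 0.12 (SE). In the dicing and loading list 3 of 5 were above 0, including the co-chaperone gene Fkbp4 at 0.14 ± 0.18 (SE), and Prkra was at -0.26 ± 0.27. Tailing, editing and turnover genes were above 0 for 4 of 11 probes. Adarb1, an RNA-editing enzyme, differed by 0.19 ± 0.11 (SE), and Lin28a, which blocks let-7 maturation, differed by -0.22 ± 0.17 at a level of 5.95, below 8.31. The piRNA pathway, which silences transposons in the germ line, had 0 of 11 probes above 8.31. Its probes were above 0 for 6 of 11, with Piwil1 at 0.36 ± 0.15 (SE) and Tdrd1 at -0.76 ± 0.29.

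**Figure D4:**
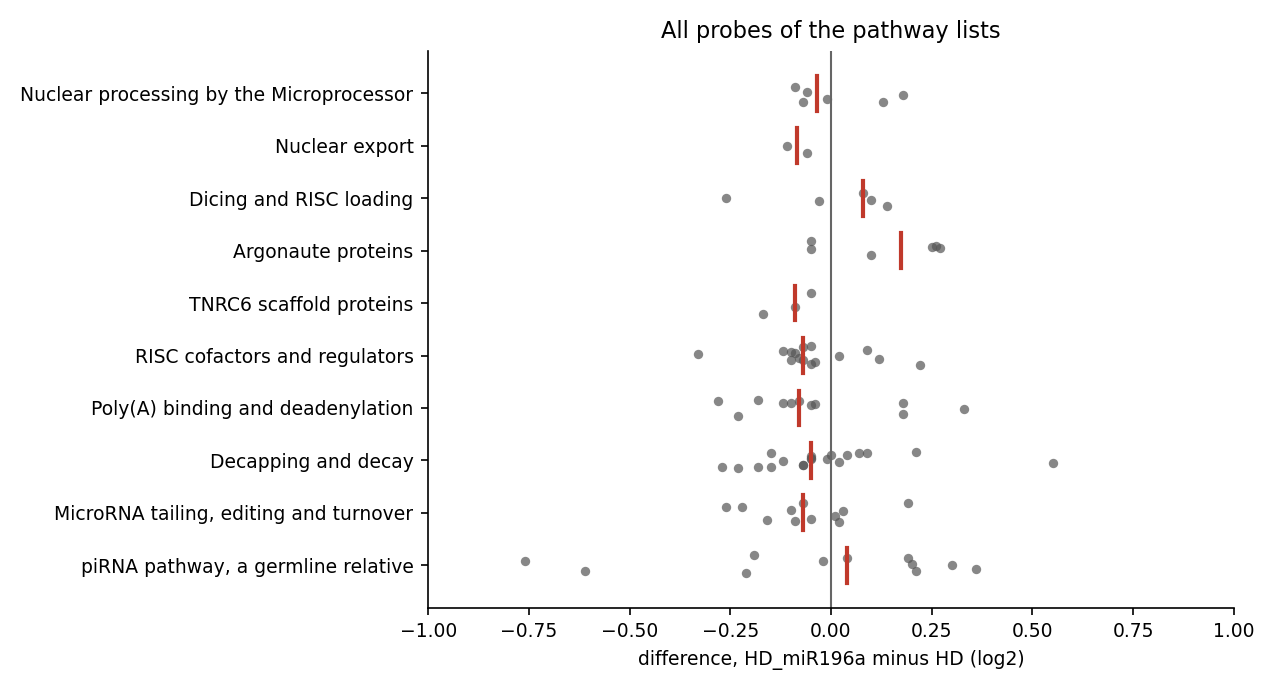
Differences between HD_miR196a and HD mice (log2) for every probe of the 9 pathway lists and of the piRNA pathway (points, spread vertically for legibility), with list medians (red bars). List medians run from -0.09 for the TNRC6 and export lists to 0.18 for the Argonaute list, and the widest spread is in the piRNA list, from -0.76 to 0.36.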

How the data were processed

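The deposited values are linear probe intensities, 1 per mouse, that include values below 0, so background had been subtracted. Per the labels' protocols, amplified RNA was labelled with Cy5, and the 2 repeats of a mouse share 1 column. The sources used here do not name the scanner, the software or any scaling. Intensities were quantile-normalized, floored at 1, log2-transformed and fitted with limma 3.58.1 in R 4.3.3 (lmFit, eBayes, two-sided, Benjamini-Hochberg over 26423 probes, 3 residual and 1.75 prior degrees of freedom). The fit was tested on simulated data. The number of arrays limits the precision.

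Groups came from the sample titles. Of 20377 named probes, 18213 symbols matched RefSeq directly and 2126 through a synonym. Gene positions are those of RefSeq on GRCm38.p6 and not of the probes. Members, lists, tests and alternatives were chosen with earlier results of these data known. Named genes are all members, Ago4, Tnrc6c and the 2 genes of each other list with the smallest p.

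Deviations from group means correlated at 0.236 for mice numbered 1 and 0.17 for those numbered 2, across probes. The deviations of the 2 HD mice are the same with opposite sign, so these are not 2 separate checks of pairing. No source says that equal numbers pair mice, so the mouse number as a block was an alternative, as were scaling, floor, filters, variance model, array weights and each mouse left out.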

Additional observations from a re-analysis of the deposited data

How the results depend on the processing

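No probe of the 10 genes or of the pathway lists was called under any alternative. Of 154 values of member probes under alternatives, 144 kept their sign or became 0.00 and 10 changed sign, and of 232 values of the other named probes 6 changed sign. These counts include the same differences under the replicate block and without HD_miR196a mouse 3. Without scaling, the difference became -0.14 for Dicer1, -0.14 for Tarbp2, -0.08 for the brightest Ago2 probe and -0.07 for Zc3h7b. It became -0.09 for Ddx17, -0.10 for Fkbp4, -0.11 for the brighter Elavl1 probe and -0.06 for Adarb1. The median of all probes was then -0.20. With 1 mouse left out, values ranged from -0.37 to 0.19 for Tnrc6a, -0.17 to 0.04 for Xpo5, -0.03 to 0.19 for Dicer1 and -0.01 to 0.28 for Ddx17. The sign changed without HD_miR196a mouse 2 (Tnrc6a, 0.06), without HD mouse 1 (Tnrc6a and Xpo5) or without HD mouse 2 (Dicer1 and Ddx17), and leaving out mouse 1 of each group gave 0.07 for Xpo5, 0.03 for Ago1 and 0.02 for Tnrc6a. The cause was not tested beyond the values given.

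Over the array, the 0 called probes became 2 with a floor of 32.6, the olfactory receptor median, 1 among the 19817 brightest probes, 3 with eBayes trend and robust settings, and 0 to 3 with 1 mouse left out, none of them a member. With the replicate block, 0 probes were called over the array and 0 of the 11, and Tnrc6a differed by -0.06, Ago3 by 0.25 and Tnrc6b by -0.13. HD has no mouse 3, so the block takes HD_miR196a mouse 3 out of the comparison. Its differences are therefore the same as those without that mouse. At an unadjusted p under 0.05 there were 3641 probes without scaling, 527 among the 13211 brightest probes and 2020 with the block, against 1099. A fit without an HD mouse assumes that the lone HD mouse varies like the other group. The Ago2, Ago3 and Ago4 probes had means below 8.31, as did 60.4% of all probes. How far low signal limits what they can show was not tested. The filter to the 13211 brightest probes removed 2 of the 11.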
